A study of Homo sapiens with 8 samples.

Results

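ESRP1, ESRP2, GRHL1, GRHL2, OVOL1, OVOL2, ELF3, EHF, KLF5 and HES2 were followed as regulators of epithelial identity in single HMLE cells. They were taken by symbol, all 10 were found among the 36601 genes of the count matrices, and each was described in every barcode population, library and cell. HMLE is an established cell line from human mammary epithelium, immortalised, in which the growth factor TGF-β can induce an epithelial-to-mesenchymal transition (EMT). The question of the series is which EMT states lie between both ends, and how G-quadruplexes bear on them, for which it names pyridostatin, a ligand of these folded stretches of guanine-rich DNA. Transcripts were counted as unique molecular identifiers (UMIs), which collapse PCR copies of a molecule, in 4 mRNA libraries prepared with a 5' kit. Short barcoded oligonucleotides named SBO01 to SBO12 marked 12 samples of the line. By barcode counts, libraries 1 and 2 held SBO01 to SBO06, the first pool, and libraries 3 and 4 the remaining 6, the second pool. The labels, however, give 12 pooled samples for each library. The labels do not tie any barcode to TGF-β, to pyridostatin, to a time or to an untreated culture, so barcode populations are given by value and were not tested against each other.

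ESRP1 and ESRP2 are RNA-binding proteins that set epithelial splice forms of transcripts such as FGFR2, CD44 and ENAH. GRHL1 and GRHL2 are grainyhead-like transcription factors that hold junction genes, among them CDH1, active, and GRHL2 and the repressor ZEB1 are known to restrain each other. OVOL1 and OVOL2 are zinc finger repressors, also known to act against ZEB1. ELF3 and EHF are epithelium-specific ETS factors, KLF5 is a Krüppel-like factor of proliferating epithelium, and HES2 is a basic helix-loop-helix repressor of the HES family. In mammary epithelium several of these genes are usually lowered as cells become mesenchymal.

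Sequence upstream of the start was searched for 3 motifs, because the series concerns G-quadruplexes and because the ZEB and SNAI repressors that oppose these genes bind the E-box CAGGTG. The third motif was AACCGGTT, a binding site of grainyhead factors. RefSeq windows of 250 bases before the start on GRCh38.p14 were searched on both strands for GRHL1, ELF3, EHF, KLF5 and HES2, 7 windows in all, while ESRP1, ESRP2, GRHL2, OVOL1 and OVOL2 were not searched. CAGGTG was found in the windows of ELF3 and HES2, once each, and in 17.5% of all 35116 RefSeq windows of that length. A G-quadruplex motif, 4 runs of at least 3 G separated by 1 to 7 bases, was found in the HES2 window and in 23.5% of all windows. AACCGGTT was in none of the 7 windows and in 0.117% of all. The windows of ELF3 and HES2 are shown because they hold these letters. In that of ELF3 (chr1:202010337-202010586, plus strand) the capitals mark CAGGTG read on the opposite strand, starting at position -120 from the start site. In that of HES2 (chr1:6419920-6420169, minus strand) they mark the G-quadruplex motif starting at position -58. The CAGGTG of HES2, which starts at position -214, does not overlap it. Both windows lie within the GENCODE 29 span of their gene. These matches describe the letters of the windows and not binding.
ELF3: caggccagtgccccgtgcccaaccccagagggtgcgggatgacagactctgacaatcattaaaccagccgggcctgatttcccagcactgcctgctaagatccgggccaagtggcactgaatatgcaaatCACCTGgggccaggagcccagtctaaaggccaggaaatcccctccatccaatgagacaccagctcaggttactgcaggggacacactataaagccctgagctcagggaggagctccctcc
HES2: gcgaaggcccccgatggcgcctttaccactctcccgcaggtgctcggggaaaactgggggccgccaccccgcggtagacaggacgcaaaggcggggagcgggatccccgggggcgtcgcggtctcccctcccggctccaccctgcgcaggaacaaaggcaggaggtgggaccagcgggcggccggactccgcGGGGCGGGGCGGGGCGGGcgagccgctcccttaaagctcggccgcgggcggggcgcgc

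After filtering, 22147 of 26247 cell barcodes were kept, 4125 to 7600 per library, with medians of 22198.5 to 38051 UMIs per cell. A single sample barcode was assigned to 11072 cells, while 5510 carried several and 5565 none. Of the cell barcodes, 899 occurred in more than 1 library. In 782 of the 1227 cells assigned to SBO12 another sample barcode had more UMIs. It did so in 157 of 525 cells of SBO11, 114 of 564 of SBO02, 103 of 1718 of SBO01 and 58 of 352 of SBO04. Levels in SBO12 thus rest on uncertain assignments, and those in SBO11, SBO02 and SBO04 do so in part. SBO08 was the highest barcode in 52.8 and 55.2% of the kept cells of libraries 3 and 4, yet 863 cells were assigned to it. SBO05 (1864 cells, median of 20861.5 UMIs) had the highest median EMT score (defined below), 1.59 against -0.58 to -0.19 elsewhere, and VIM, the intermediate filament vimentin, stood there at 3306 CPM (UMIs scaled to the same total in every sum of cells) against 99.8 to 307 CPM in the other 11 populations. SBO01 and SBO12 had the most transcripts of the basal keratin KRT5, 1785 and 1787 CPM, against 73.2 to 692 CPM in the other 10. The list of 8 leukocyte markers summed to 13.2 CPM in SBO12, the lowest, and 40.3 CPM in SBO05, the highest. CD3E and NKG7 were at 0 in all 12 populations, but 1 or 2 of the 8 reached 1 CPM in each. CD14 and CD68 were abundant enough to enter the tests below. The list of 8 fibroblast markers, which mesenchymal epithelial cells also express, summed to 314 CPM in SBO05 and to 49.8 to 131 CPM elsewhere.

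Transcripts of all 10 regulators were least abundant in SBO05, on UMIs summed over its cells and both of its libraries. The median of the other 11 populations exceeded SBO05 by 3.85-fold for KLF5 and by 14.9-fold for OVOL2, and by values between these for the other 8. For every one of the 10, both libraries of SBO05 lay below both libraries of the next population in order. For ELF3 the margin below SBO12 was narrow, by the library values given below. Under some other ways of assigning cells, also given below, SBO12 was lowest for ELF3 or for both ELF3 and EHF. Since the populations were not replicated as cultures, these ratios carry no error beyond the 2 library values. CDH1 and EPCAM, adhesion genes of epithelial cells, were lowest there too, at 9.53 and 31.2 CPM in SBO05 against medians of 65.6 and 318 CPM in the other 11.

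**Figure D1:**
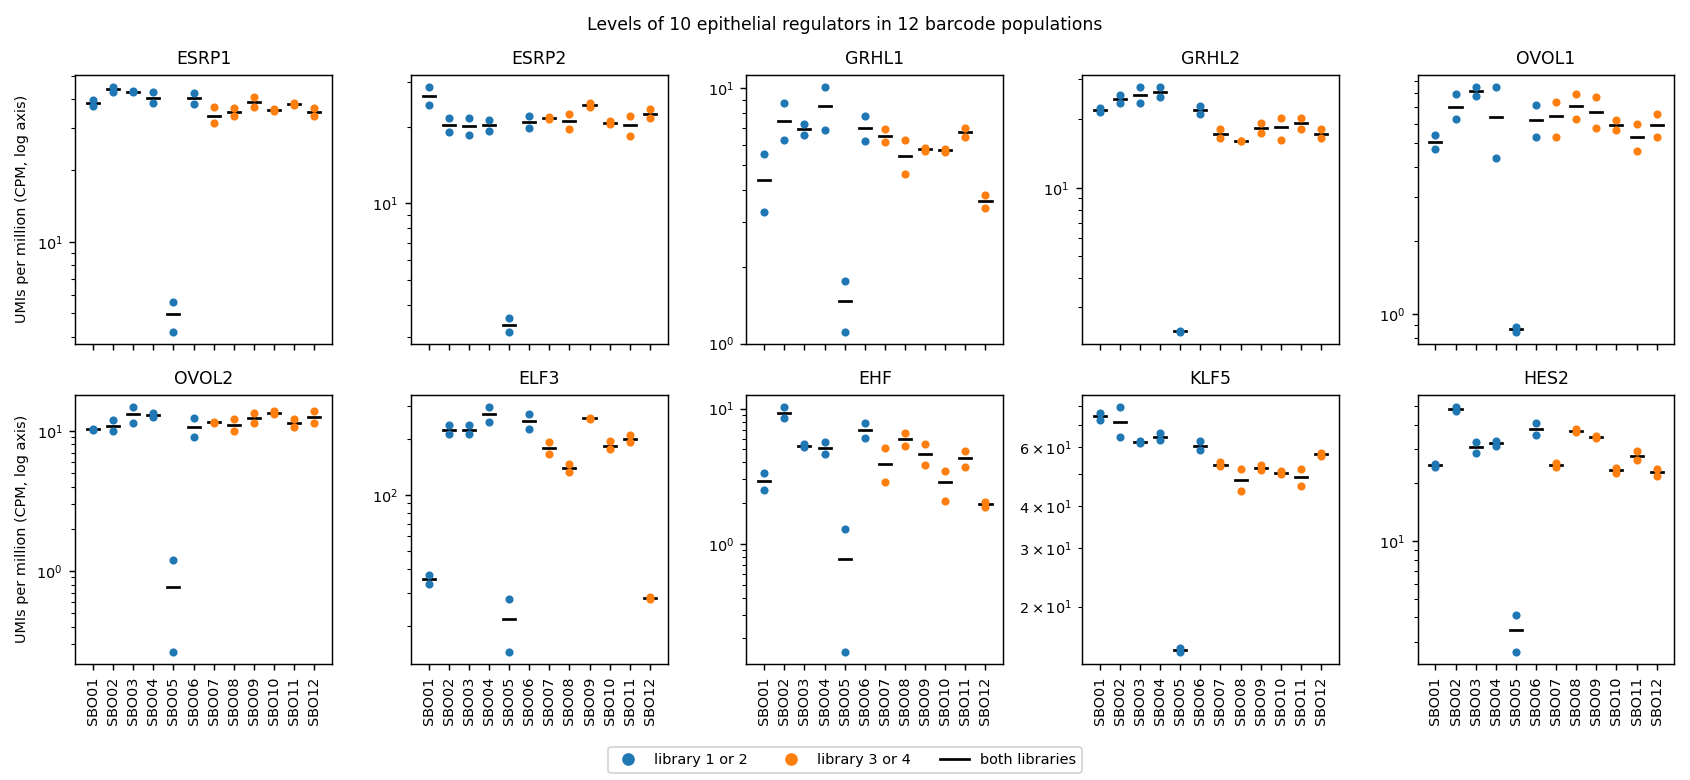
Level of each of the 10 regulators in the 12 barcode populations, in CPM on a log axis. Points are the 2 libraries that hold a population and bars are both libraries together. SBO05 lies lowest in every panel, and ELF3 is also low in SBO01 and SBO12, at 35.5 and 28.1 CPM.

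Both splicing regulators were nearly level outside SBO05. ESRP1 (ENSG00000104413, chromosome 8, 94641074 to 94707466, plus strand) ranged from 4.97 CPM in SBO05, where the libraries gave 5.61 and 4.19 CPM, over a median of 38.1 to 43.8 CPM in SBO02. ESRP2 (ENSG00000103067, chromosome 16, 68229111 to 68238102, minus strand) ranged from 3.33 CPM in SBO05 over a median of 20.8 to 26.5 CPM in SBO01. Without SBO05 the highest population exceeded the lowest by 1.29-fold for ESRP1 and by 1.32-fold for ESRP2. The basal keratin-rich SBO01 was the top of the ESRP2 order, but its library values overlapped those of SBO09, the next below it. Over the 11 populations without SBO05 the 2 genes had a Pearson r of -0.25 on log2(CPM + 1) values, and over all 12 of 0.97. Genome positions here and below are those of GENCODE 29 on GRCh38.

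GRHL2, like KLF5 below, was higher in the first pool than in the second, outside SBO05. GRHL2 (ENSG00000083307, chromosome 8, 101492432 to 101669726, plus strand) stood at 22.0 to 26.4 CPM in SBO01, SBO02, SBO03, SBO04 and SBO06 and at 16.1 to 19.3 CPM in SBO07 to SBO12, against 2.34 CPM in SBO05. Samples and libraries both differ between the pools, so the source of this gap cannot be told apart. GRHL1 (ENSG00000134317, chromosome 2, 9951693 to 10002277, plus strand) followed another order, from 1.47 CPM in SBO05 and 3.61 and 4.38 CPM in SBO12 and SBO01 to 8.50 CPM in SBO04, and its median was 6.14 CPM. The 2 libraries of SBO04 gave GRHL1 values that overlapped those of SBO02, the population below it.

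OVOL1 and OVOL2 varied little outside SBO05. OVOL1 (ENSG00000172818, chromosome 11, 65787022 to 65797219, plus strand) ranged from 0.868 CPM in SBO05 over a median of 6.31 to 8.13 CPM in SBO03. OVOL2 (ENSG00000125850, chromosome 20, 17956979 to 18059188, minus strand) ranged from 0.772 CPM in SBO05 over a median of 11.5 to 13.5 CPM in SBO10. For both genes SBO05 was separated from SBO01, the next population, and no other neighbours in the order had library values that did not overlap. The SBO05 values rested on 36 UMIs of OVOL1 and 32 of OVOL2 in 1864 cells.

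ELF3 had the widest range of the 10 on the log2(CPM + 1) scale, at 3.58. ELF3 (ENSG00000163435, chromosome 1, 202007945 to 202017188, plus strand) stood at 21.7 CPM in SBO05, 28.1 in SBO12 and 35.5 in SBO01. It stood at 139 CPM in SBO08, 177 in SBO07, 184 in SBO10, 200.3 in SBO11, 223 in both SBO02 and SBO03, 247 in SBO06, 257 in SBO09 and 270.0 in SBO04. ELF3 thus fell into a low set of 3 populations and a high set of 9, whose library values did not overlap. SBO01, low in ELF3, was the population with the most ESRP2 and KLF5, and SBO12 had 35.1 CPM of ESRP1 and 12.6 CPM of OVOL2, both within the range of the 9 populations high in ELF3. The libraries of SBO05 gave 27.7 and 14.5 CPM, those of SBO12 28.5 and 27.7 and those of SBO01 37.3 and 33.5. When only cells whose assigned barcode had the most UMIs were kept, SBO12 was the lowest at 21.5 CPM, beside 21.7 CPM in SBO05.

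EHF and HES2 were highest in SBO02 and low in SBO12. EHF (ENSG00000135373, chromosome 11, 34621093 to 34661057, plus strand) ranged from 0.772 CPM in SBO05 and 1.96 CPM in SBO12 over a median of 4.44 to 9.35 CPM in SBO02. HES2 (ENSG00000069812, chromosome 1, 6412418 to 6424670, minus strand) ranged from 3.45 CPM in SBO05 and 22.7 CPM in SBO12 over a median of 29.2 to 48.3 CPM in SBO02. Both were second in SBO12 in the order from the lowest, and SBO02 was separated from its neighbour SBO06 for both. KLF5 (ENSG00000102554, chromosome 13, 73054976 to 73077542, plus strand) ranged from 14.9 CPM in SBO05 over a median of 55.3 to 74.4 CPM in SBO01. Outside SBO05 it stood at 60.6 to 74.4 CPM in the first pool and at 47.9 to 57.3 CPM in the second, a split that again cannot be told apart from the libraries. KLF5 had the smallest fold between the median of the others and SBO05 of the 10 genes. By another assignment, the top barcode rule, in which the highest barcode needed at least 10 UMIs and 3 times those of the second, SBO12 was lowest for ELF3 (20.6 CPM, 31.8 in SBO05) and EHF (0.536 CPM, 1.09 in SBO05), and SBO05 for the other 8.

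The regulators shared the low value in SBO05 more than they shared any other pattern. Of the 45 pairs, 43 had a Pearson r over 0.5 across the 12 populations, and 16 across the 11 without SBO05, where 14 were below 0. The populations share libraries within a pool, and these coefficients describe the 12 values only. Without SBO05 the closest pairs were EHF with HES2 at 0.95, GRHL1 with ELF3 at 0.90 and ESRP1 with GRHL2 at 0.88, and the most opposed was ESRP2 with GRHL1 at -0.67. Among the 6097 genes that averaged 20 CPM or more, those most like ELF3 over the 12 populations were CRABP2, CTSH and NCCRP1, with r of 0.986, 0.984 and 0.983, and 0.981, 0.975 and 0.978 without SBO05. GRHL1 was most like CLDN4, a tight junction claudin, at 0.989 and 0.964 without SBO05, and then TMEM51 and PARD6B, both at 0.979. ESRP1 was most like F11R, MAP7 and JUP (0.995 to 0.996) and GRHL2 like F11R, JUP and TSTD1 (0.985 to 0.99), F11R being a tight junction adhesion molecule and JUP plakoglobin. Without SBO05 these values were 0.75 to 0.90 for ESRP1 and 0.81 to 0.92 for GRHL2. HES2 was most like CALML3, FXYD3 and ARNTL2, and KLF5 like FBXO2, SERPINB5 and MICALL1. ESRP2 was most like IL18, TRIM29 and LAD1, and OVOL1 like RASSF7, KCNK6 and TMEM54. For HES2, KLF5, ESRP2 and OVOL1 the r lay between 0.977 and 0.994. Without SBO05 it lay between 0.67 (OVOL1 with TMEM54) and 0.88 (KLF5 with SERPINB5). OVOL2 was most like MARVELD3, C19orf33 and AP1M2 (0.987 to 0.988), and these fell to 0.40, 0.37 and 0.25 without SBO05. EHF had a mean below 5 CPM and was not matched.

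In single cells thinned to 10000 UMIs, most cells of SBO05 held a transcript of none of the 10. The share with none was 73.9% of 1726 cells in SBO05 and 6.79 to 17.5% in the other 11 populations, and the mean number of regulators detected per cell was 0.353 against 1.65 to 2.42. ELF3 was found in 9.21% of SBO05 cells (exact 95% binomial interval 7.89 to 10.7%), 19.7% of SBO01 cells, 18.5% of SBO12 cells, and 76.2% of SBO04 cells, the highest share. Without thinning ELF3 was found in 15.4% of SBO05 cells and in 37.1 to 88.7% of the cells elsewhere. Shares of KLF5 were 11.5% in SBO05 and 35.6 to 49.0% elsewhere, those of ESRP1 3.71% and 27.6 to 32.2%, and those of HES2 3.24% and 17.0 to 30.7%. GRHL2 was found in 2.03% of SBO05 cells and in 14.4 to 21.5% elsewhere, and OVOL2 in 0.406% and 8.43 to 14.2%. The leukocyte gene PTPRC, which these cells should lack, was found in at most 0.151% of the cells of any population, but as no population makes it, this does not measure free RNA from epithelial cells of the same pool. The part of such RNA in the SBO05 shares was not tested. Median depths before thinning were 20861.5 UMIs in SBO05 and 23181 to 35406 elsewhere, and the intervals cover counting error only. Within a population, pairs of regulators were at most weakly correlated over cells, with a highest median r of 0.13 for ELF3 and KLF5, which at these counts is no finding.

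The next comparison asked how the regulators differ between the epithelial and the mesenchymal end of the cells within each population. Cells were ordered by an EMT score, the mean standardised level of 12 mesenchymal genes such as VIM and FN1 minus that of 12 epithelial genes such as CDH1 and EPCAM, none of them among the 10. Each population in each library was divided into a low (epithelial), a middle and a high (mesenchymal) tier of equal size, so that no population was more frequent in any tier. UMIs were summed per tier and library and tested by edgeR's quasi-likelihood method in a model that blocks on library, and p-values were adjusted by Benjamini-Hochberg over 15270 genes. Genes that cells regulate together with those of the score differ between tiers by construction, so the values describe an association with the score and not an effect of a treatment. Every pool was loaded into 2 libraries, and the block removes differences in level from one library to another. What remains behind the p-values is how far the tier differences vary among libraries, which may be technical. Variation between cultures is not measured by them.

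In the high tier, 9 of the 10 regulators were lower than in the low tier and OVOL2 was not called (adjusted p under 0.05). By the same test 34.9% of all genes were called, 16.8% as lower and 18% as higher. The median log2 fold change was -0.85 for the 10 and 0.01 for all genes tested. The changes fell into 2 sizes, with GRHL1, ELF3, OVOL1, HES2 and EHF between -1.50 and -1.18 and ESRP1, ESRP2, KLF5 and GRHL2 between -0.52 and -0.49. For scale, CDH1, which is part of the score and so falls by construction, was at 76.8 ± 5.17 CPM in the low and 33.8 ± 1.70 CPM in the high tier (SD, n = 4 libraries).

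ELF3, with the smallest adjusted p of the 10, stood at 171, 195, 227 and 207 CPM in the low tier of libraries 1 to 4 and at 63.3, 66.2, 79.5 and 82.8 CPM in the high tier. The middle tier lay between, at 109, 125, 132 and 135 CPM, and no values of the 3 tiers overlapped. The log2 fold change from low to high was -1.43 ± 0.03 (SE, adjusted p = 1.79e-16, edgeR). ELF3-AS1, an antisense gene beside ELF3, fell too, by 1.01 on the log2 scale (SE 0.09, adjusted p = 3.05e-08, edgeR). The strand setting of the counting is not given in the sources used here, so reads of the 2 genes may not be fully told apart. GRHL1 stood at 6.95, 7.72, 8.02 and 8.23 CPM in the low and at 2.57, 2.36, 2.94 and 2.92 CPM in the high tier, without overlap. Its log2 fold change was -1.50 ± 0.10 (SE, adjusted p = 9.99e-10, edgeR).

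HES2 stood at 36.1, 37.2, 41.2 and 40.4 CPM in the low tier and at 14.8, 13.5, 16.7 and 19.2 CPM in the high tier. The groups did not overlap, and the log2 fold change was -1.25 ± 0.06 (SE, adjusted p = 1.17e-12, edgeR). EHF, the other ETS factor, was at 5.56 ± 0.396 CPM in the low and 2.43 ± 0.402 CPM in the high tier (SD, n = 4), a change of -1.18 ± 0.11 (log2, SE). KLF5 was at 63.0 ± 4.61 and 44.0 ± 2.06 CPM, a change of -0.50 ± 0.05. For both, the lowest library of the low tier lay above the highest library of the high tier.

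ESRP1 stood at 35.8, 37.4, 43.3 and 39.1 CPM in the low and at 22.2, 24.3, 31.7 and 29.3 CPM in the high tier. ESRP2 stood at 20.5, 22.7, 24.5 and 25.7 CPM in the low and at 13.2, 15.4, 18.6 and 17.4 CPM in the high tier. Both splicing regulators fell in all 4 libraries, with log2 fold changes of -0.52 ± 0.05 and -0.51 ± 0.05 (SE), and the tiers did not overlap. GRHL2 was at 20.2 ± 1.22 CPM in the low and 14.2 ± 1.10 CPM in the high tier (SD, n = 4), a log2 change of -0.49 ± 0.06 (SE). When tiers were set over a whole library, so that SBO05 could fill the high tier of libraries 1 and 2, the changes of ESRP1, ESRP2 and GRHL2 were -1.60, -1.43 and -1.58 and missed the threshold (adjusted p = 0.0694, 0.0573 and 0.0887, edgeR), while the other 6 called genes stayed past it.

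**Figure D2:**
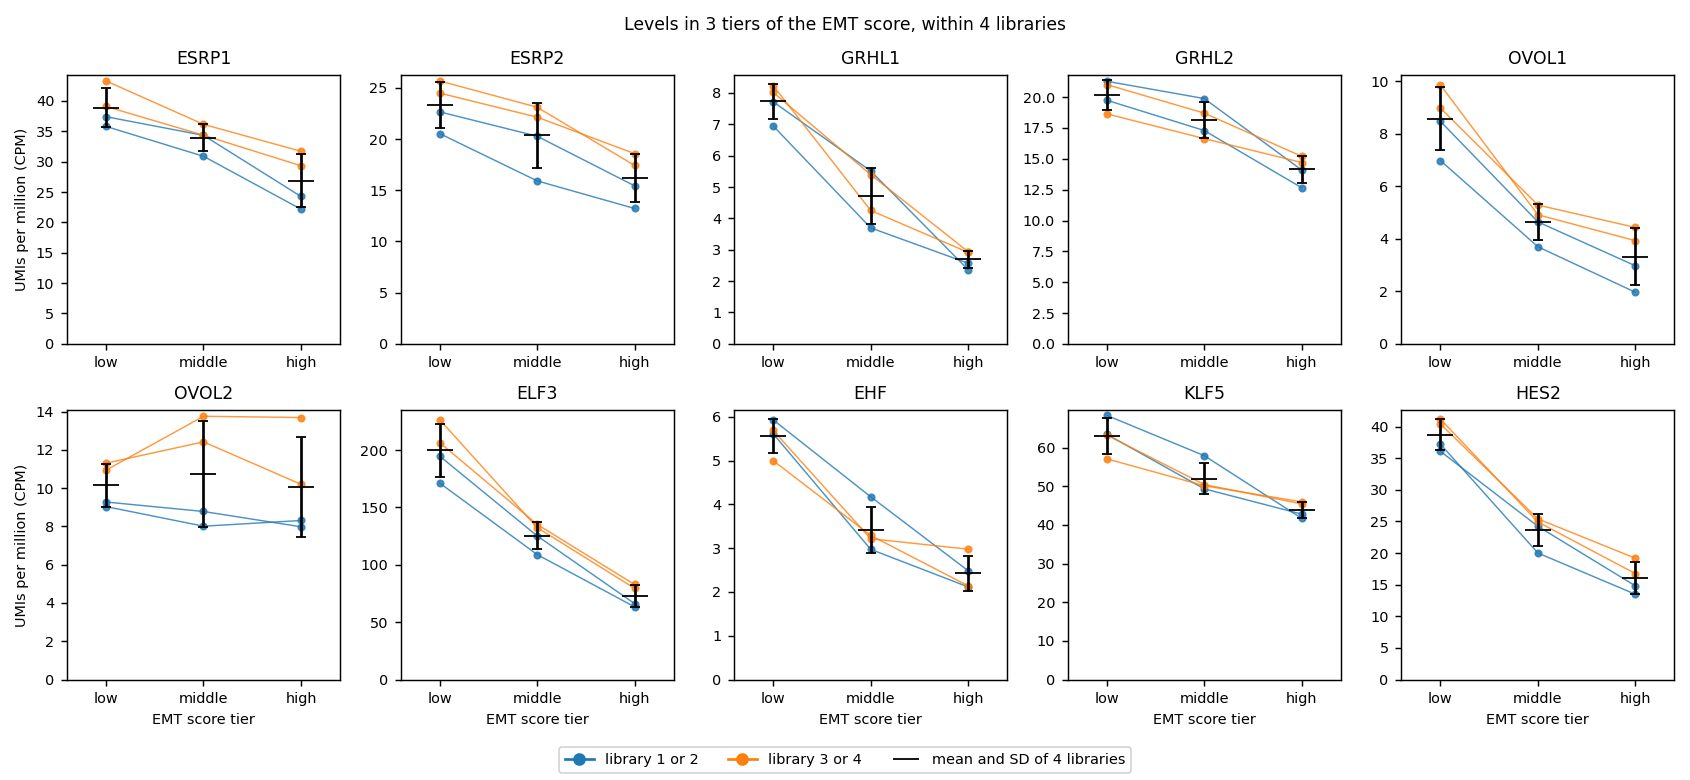
Level of each regulator in CPM in the low, middle and high tier of the EMT score, with the axis starting at 0. Thin lines join the tiers of 1 library and black marks give the mean and SD of 4 libraries. ELF3 dropped from a mean of 199.8 to 73.0 CPM, while OVOL2 was at 10.1 and 10.0 CPM.

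The OVOL genes differed from each other. OVOL1 stood at 6.98, 8.48, 9.86 and 8.99 CPM in the low and at 1.96, 2.97, 3.93 and 4.43 CPM in the high tier, a log2 fold change of -1.35 ± 0.10 (SE, adjusted p = 2.98e-09, edgeR). OVOL2 stood at 9.04, 9.28, 11.3 and 10.9 CPM in the low and at 8.31, 7.98, 10.2 and 13.7 CPM in the high tier, and these overlapped. Its log2 fold change was -0.0039 ± 0.084 (SE, 95% interval -0.18 to 0.17, adjusted p = 0.978, edgeR). The change of OVOL1 minus that of OVOL2, on the log2(CPM + 1) scale that understates low genes, was -1.14 ± 0.14 (SD, n = 4) and below 0 in 4 of 4 libraries. That of GRHL1 minus GRHL2 was -0.76 ± 0.15, also below 0 in 4 of 4. ESRP1 minus ESRP2 was -0.02 ± 0.10 and below 0 in 3 of 4. A two-sided exact permutation test of sign changes gave p = 0.125 for the OVOL and GRHL pairs, the smallest it can give with 4 libraries (adjusted p = 0.188 over 6 such pairs, counting those for the second score below), and p = 0.75 for the ESRP pair.

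The change was spread over both steps between tiers. Against the low tier, 8 of the 10 were lower in the middle tier (12.9% of all genes were called, 7.59% as lower and 5.28% as higher), and GRHL2 and OVOL2 were not called. GRHL2 had a log2 change of -0.14 ± 0.05 (SE, adjusted p = 0.0964, edgeR) and OVOL2 of 0.08 ± 0.08. From the middle to the high tier 9 were lower (13.5% of all genes called, 6.8% as lower and 6.73% as higher), again all but OVOL2 at -0.09 ± 0.08. OVOL1 dropped by 0.88 on the log2 scale in the first step and by 0.48 in the second, and ELF3 by 0.66 and 0.78. ESRP1 dropped by 0.19 and 0.33 and GRHL2 by 0.14 and 0.35. The difference between the steps was not tested. In the first step, leaving out library 1 or library 3 ended 1 call each, ESRP2 (adjusted p = 0.117) and ESRP1 (adjusted p = 0.0544, both edgeR). In the second, leaving out library 2 ended the calls of OVOL1 and EHF (adjusted p = 0.0587 and 0.102) and leaving out library 4 that of EHF (adjusted p = 0.0582, all edgeR). With DESeq2 the number called as lower was 6 in the first step and 8 in the second, and with thinned cells it was 6 and 7.

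Within single populations the direction was the same for 9 of the 10. ESRP1, ESRP2, GRHL1, GRHL2, OVOL1, ELF3, EHF, KLF5 and HES2 were lower in the high than in the low tier in 12 of 12 populations, whereas OVOL2 was lower in 7 and higher in 5. The log2(CPM + 1) differences of ELF3 had a median of -1.44 and lay between -3.37 (SBO05) and -1.05 (SBO02). Those of HES2 ranged from -2.42 in SBO04 to -0.88 in SBO03, and those of GRHL2 from -1.03 in SBO05 to -0.03 in SBO07. OVOL2 ranged from -1.41 in SBO05 to 0.78 in SBO08. Some signs rested on few UMIs. EHF in SBO10 lay at -0.04, with 21, 7 and 19 UMIs in the low, middle and high tier. In the mesenchymal SBO05, ELF3 was at 50.8 CPM in the low, 6.54 in the middle and 4.02 CPM in the high tier, and ESRP1 at 10.2, 2.51 and 1.62 CPM. OVOL2 in SBO05 had 27, 4 and 1 UMIs in the 3 tiers. The most epithelial tier of SBO05 thus held most of the UMIs of ELF3 there, 738 against 86 and 52. Populations were not replicated, and their tiers were not tested singly.

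**Figure D3:**
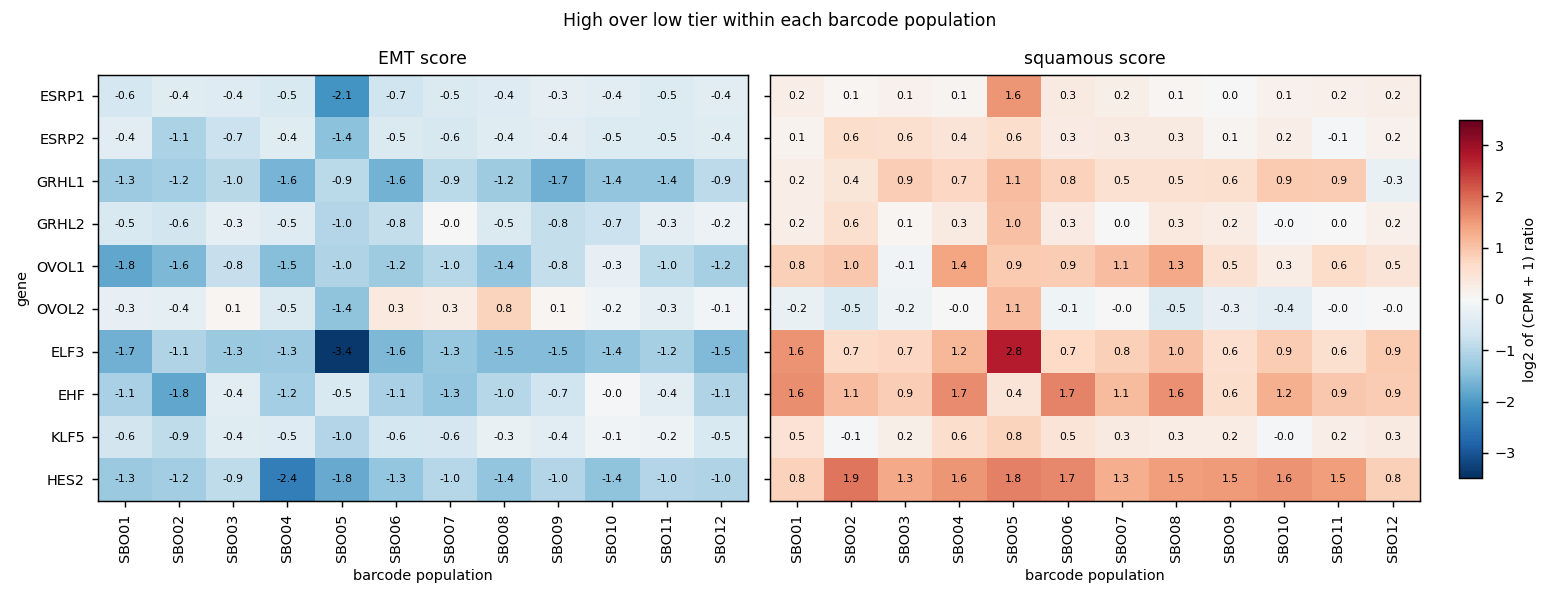
Log2 ratio of (CPM + 1) between the high and the low tier for each regulator in each barcode population, for the EMT score on the left and the squamous score on the right, with red for higher and blue for lower in the high tier. For the EMT score all fields but 5 of OVOL2 lie below 0, and ELF3 in SBO05 is the lowest at -3.37.

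The change between tiers was not called as different between the pools for any of the 10. An interaction of tier with pool, given as the change in libraries 3 and 4 minus that in libraries 1 and 2, was called for 2.81% of all genes (1.62% higher, 1.19% lower) and for 0 of the 10. KLF5 (0.26 ± 0.07, SE, adjusted p = 0.0536) and ESRP1 (0.24 ± 0.07, adjusted p = 0.0802, both edgeR) came nearest. Without adjustment 4 of the 10 passed 0.05, the others being OVOL1 (0.49 ± 0.19) and GRHL2 (0.23 ± 0.10). All 10 estimates were above 0, from 0.09 for ELF3 to 0.49 for OVOL1. Their median was 0.23, against 0.02 for all genes tested. The lack of calls thus does not show that the pools are alike. DESeq2 called 0 of the 10 as well. With tiers set over a whole library, all 10 were called, with log2 differences from 1.48 for GRHL1 to 3.54 for OVOL2. KLF5 alone was called without library 3 (0.34, adjusted p = 0.00874, edgeR), without a low-count filter and among cells whose assigned barcode was highest, ESRP1 alone with thinned cells, and both by the top barcode rule.

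A second score asked whether the regulators differ along squamous differentiation, the program of stratified epithelium. It was the mean standardised level of 14 genes, among them KRT13, IVL, SPRR1B and S100A8, and again held none of the 10. In the high tier 9 of the 10 were higher and OVOL2 was lower, with 43.3% of all 15303 genes called, 20.2% as higher and 23.1% as lower. The median log2 fold change of the 10 was 0.48, and that of all genes -0.01. This score and the EMT score correlated at -0.34 over 10233 cells, and from -0.21 to -0.42 within populations. The tiers of the scores are thus not independent, and 31.7% of cells shared the lowest squamous score, so that where such ties cross a tier boundary the tier of those cells is arbitrary.

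EHF and HES2 had the largest squamous changes of the 10. HES2 stood at 15.2, 13.8, 16.5 and 18.3 CPM in the low and at 39.7, 39.0, 44.4 and 44.2 CPM in the high tier, without overlap. Its log2 fold change was 1.37 ± 0.04 (SE, adjusted p = 4.07e-17, edgeR). EHF was at 2.23 ± 0.461 CPM in the low and 6.39 ± 0.898 CPM in the high tier (SD, n = 4), a change of 1.51 ± 0.12 (log2, SE). ELF3 and OVOL1 rose by 0.84 ± 0.04 and 0.84 ± 0.09, GRHL1 by 0.63 ± 0.09 and KLF5 by 0.33 ± 0.04, and the low and high tiers overlapped for none of these 4. HES2, EHF, ELF3 and ESRP1 were higher in the high tier in 12 of 12 populations.

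ESRP1, ESRP2 and GRHL2 changed least among the 9 that rose, by 0.20 ± 0.04, 0.24 ± 0.05 and 0.22 ± 0.05 (log2, SE), and their tiers overlapped between libraries. OVOL2 stood at 8.61, 9.87, 11.6 and 13.7 CPM in the low and at 8.48, 7.99, 10.8 and 11.3 CPM in the high tier. It was lower in 4 of 4 libraries and in 11 of 12 populations, all but SBO05, with a log2 fold change of -0.20 ± 0.07 (SE, adjusted p = 0.0185, edgeR). This call was lost with DESeq2 (adjusted p = 0.116), with thinned cells (adjusted p = 0.598), with the top barcode rule (adjusted p = 0.0752) and without library 2 or 4 (adjusted p = 0.0941 and 0.168, edgeR). With tiers set over a whole library its sign turned, to 0.31 (adjusted p = 0.201, edgeR). OVOL1 minus OVOL2 was 0.89 ± 0.15 (SD, n = 4) and GRHL1 minus GRHL2 0.33 ± 0.03, above 0 in 4 of 4 libraries (two-sided exact permutation p = 0.125 each, the smallest possible).

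**Figure D4:**
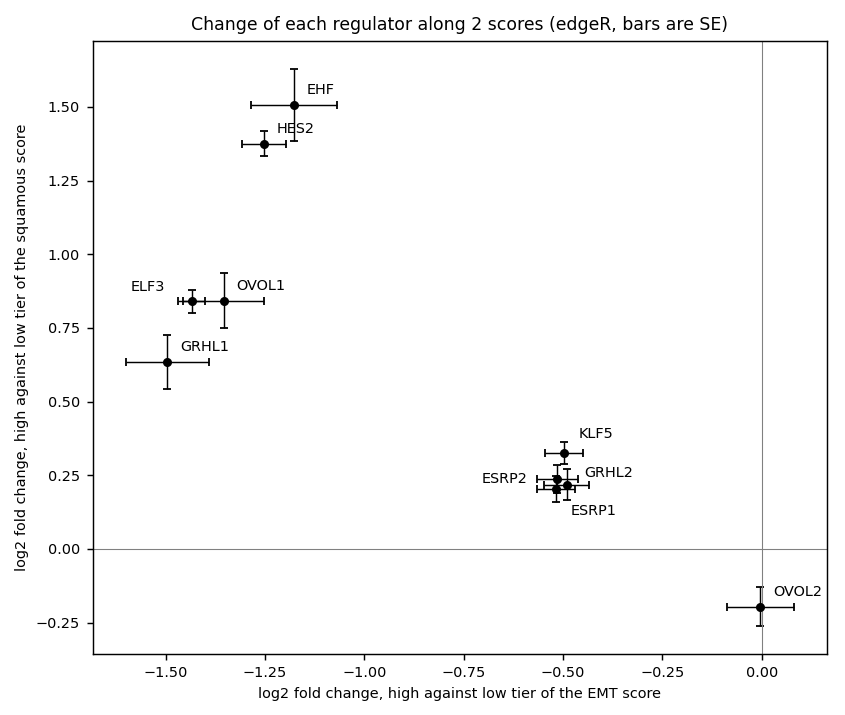
Log2 fold change of each regulator between the high and low tiers of the EMT score (horizontal) and of the squamous score (vertical), from edgeR with bars of 1 SE. GRHL1, ELF3, OVOL1, HES2 and EHF lie at the upper left, ESRP1, ESRP2, GRHL2 and KLF5 nearer to 0, and OVOL2 at -0.0039 and -0.20.

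Genes tied to the 10 were counted from lists, with the same test. Over all genes, that test called 16.8% as lower and 18% as higher along the EMT score. Along the squamous score it called 20.2% as higher and 23.1% as lower. The lists were chosen with earlier results of these data known, so their counts are no independent support. Of the junction, trafficking and membrane protease genes listed as tied to GRHL factors, 20 of 20 were lower in the EMT high tier. In the high tier of the squamous score 20 of 20 were higher. The EMT score itself holds junction genes such as CDH1 and CLDN4, so a fall of further junction genes along it was likely beforehand. TJP3, a tight junction protein, changed by -1.98 ± 0.11 (log2, SE) along the EMT score and by 1.72 ± 0.12 along the squamous score, and EVPL, the cornified envelope protein envoplakin, by -1.27 ± 0.11 and 1.29 ± 0.10. Of 8 EMT transcription factors, 8 were higher in the EMT high tier, led by PRRX1 at 1.74 ± 0.20 and ZEB2 at 1.23 ± 0.16. Along the squamous score 5 of these 8 were lower, among them SNAI2 at -0.69 ± 0.07. PRRX1 was at 0 in 5 of the 12 populations, SBO07, SBO08, SBO10, SBO11 and SBO12.

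Of 13 other epithelial transcription factors 10 were tested, of which 9 were lower in the EMT high tier and 1, TP63, was higher (0.61 ± 0.07, log2, SE). ZNF750, a regulator of epidermal differentiation, changed most, by -2.92 ± 0.14, and GRHL3, the third grainyhead-like gene, by -2.11 ± 0.10. Along the squamous score 9 of the 10 were higher, with ZNF750 at 2.01 ± 0.14 and GRHL3 at 1.18 ± 0.10. Over all genes 16.8% were lower and 18% higher along the EMT score, and 20.2% higher along the squamous score. ELF5, the ETS factor of luminal progenitors, was at 0 in all 12 populations. Of 11 splicing regulators tested beside the ESRP genes, 4 were called, a share near the 34.9% of all genes: 1 was lower in the EMT high tier, RBM47 at -0.998 ± 0.07, and 3 were higher, KHDRBS3 at 0.70 ± 0.17, QKI at 0.15 ± 0.04 and MBNL1 at 0.09 ± 0.03. RBM47 binds RNA in epithelial cells and QKI is known for mesenchymal splicing.

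Of 11 Notch pathway and HES or HEY genes tested, 6 were lower in the EMT high tier, among them the receptors NOTCH3 at -1.45 ± 0.13 and NOTCH1 at -1.13 ± 0.09 and the target HES1 at -0.46 ± 0.05. One ligand gene, DLL1, was higher at 0.85 ± 0.10, and 4 were not called, against 16.8% lower and 18% higher over all genes. Along the squamous score NOTCH3 stood at 1.79 ± 0.14, NOTCH1 at 1.06 ± 0.08 and HES4, another HES gene, at 0.85 ± 0.06, with 5 of 11 higher and 1 lower, against 20.2% and 23.1% of all genes. Of 9 KLF genes beside KLF5, 3 were higher in the EMT high tier, with KLF7 at 0.61 ± 0.09, 3 were lower, with KLF4 at -0.56 ± 0.07, and 3 were not called. Over all genes 18% were higher and 16.8% lower, so with 9 genes these counts are not read as a result about the family. Fibroblast markers moved with the EMT tiers: 3 of 3 tested were higher, with DCN, a proteoglycan gene, at 4.29 ± 0.32, and their part in the results was not tested. Median depth also moved, from 24655 UMIs in the low to 22604 in the high tier of library 1 and from 40648 to 39874 in library 4, and with cells thinned to equal depth the same number, 9 of the 10, was called as lower.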

How the data were processed

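The values used are UMI counts per gene and cell, deposited by the authors as 1 raw matrix per mRNA library that also holds the counts of the 12 sample barcodes. The authors made them on build hg38; Cell Ranger 6.0.2 stands in the file headers, and the submitters' processing notes also name Seurat 4.1.0 and bcl2fastq 2.20.0.422. For the annotation release and the strand setting, the sources used here give nothing. A 5' kit reads the start of transcripts, so the counts do not tell apart isoforms with a common start.

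Kept cells had 1000 or more genes and no more than 15% mitochondrial UMIs. They were assigned by HTODemux of Seurat 5.3.0 (quantile 0.99) among the barcodes that were the highest in at least 1% of a library's cells. Cells with several barcodes were left out as doublets, and no other doublet caller was run. For the scores, cells were thinned to 10000 UMIs, which 10233 of 11072 reached (92.4%), and each gene was standardised over them. Sums of all UMIs, not thinned, per tier and library were tested with edgeR 4.0.16 in R 4.3.3 (filterByExpr, TMM, library as a block, adjusted p under 0.05). The genes of a score were left out of its test. On simulated data edgeR was tested for recovery of known changes. The 4 libraries carry the labels' numbers 1 to 4, and the tiers of 1 library share its preparation, which is why library is a block. Population levels are summed UMIs in CPM, with a pseudocount of 1 CPM on log2 scales. DESeq2 1.42.0 and the settings named below were alternatives.

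The 10 genes and all lists were chosen with earlier results of these data known. Named are the 10 genes, up to 4 called genes of a list with the largest change, and the 3 genes most like a regulator over the populations; others are named to complete a count and were chosen after their values were seen. Luminal, basal and endothelial marker lists were also counted. In the EMT high tier 3 of 4 tested luminal markers were lower and 1 higher. Of 8 basal markers 5 were higher and 1 lower, and 2 of 2 endothelial and 2 of 2 leukocyte markers were lower. Over all genes 16.8% were lower and 18% higher.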

Additional observations from a re-analysis of the deposited data

How the results depend on the processing

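From low to high EMT tier, 9 of the 10 were called as lower in each of 13 of 14 alternatives and 6 with tiers over a whole library, while the number of genes called was 5323, 3230 with thinned cells and 1546 without the replicate block (466 higher, 1080 lower). From low to middle it was 1965, 1033 with thinned cells, 214 with whole-library tiers, 1103 with DESeq2, 179 without the replicate block and 1237 to 1489 when 1 library was left out. From middle to high it was 2066, 975 with thinned cells, 257 with whole-library tiers, 1102 with DESeq2, 130 without the replicate block and 1330 to 1628 when 1 library was left out. Without the replicate block 4 of the 10 were called in the first step and 2 in the second, and 0 in either with whole-library tiers. Along the squamous score 6622 genes were called, 3996 with thinned cells and 2366 without the replicate block (1457 higher, 909 lower), where 6 of the 10 stayed higher. For the difference between pools the number was 429, 252 with thinned cells, 8320 with whole-library tiers, 1150 by the top barcode rule, 102 without SBO05, 91 with DESeq2, 52 without the replicate block and 199 to 350 when 1 library was left out. The sign of OVOL2 from low to high EMT tier turned to 0.00568 with DESeq2 size factors, 0.00061 without a low-count filter and 0.0115 without the replicate block. Its change lay between -0.14 and 0.0478 when 1 library was left out. Over all 14 alternatives it reached -1.17 from low to high and -1.19 from middle to high, and 0 of these called it. From low to middle OVOL2 stood at -0.0768 with thinned cells and between -0.0114 and 0.16 when 1 library was left out, and along the squamous score at 0.31 with whole-library tiers. The pool difference of GRHL1 was -0.0288 without SBO05 and -0.0308 to 0.22 when 1 library was left out, that of ELF3 -0.0242 with thinned cells, -0.0453 by the top barcode rule and -0.0531 without SBO05, and that of EHF -0.23 with thinned cells. Whole-library tiers differ in population makeup, and thinning lowers the counts. Causes of the changes under these and the other settings were not tested. Of 700 member values under alternatives, 616 kept direction and side of the threshold. The levels of members with few UMIs in SBO05, such as OVOL2 with 32, rest on small counts there.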

Other observations

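In SBO05, the mesenchymal population, 33 of 1726 thinned cells (1.91%) held UMIs of at least 3 of the 10 regulators, against 35.2% of the 8507 cells of the other 11 populations. These cells were singled out after their values were seen, and nothing was tested on them. They carried 22.8% of the regulator UMIs of SBO05 after thinning, and 77 of its ELF3 UMIs. Their VIM level was 855 CPM against 3516 CPM in the 1275 cells of SBO05 with none of the 10, COL1A1 39.4 against 222 CPM, EPCAM 233 against 12.8 CPM and KRT5 461 against 40.3 CPM. Their median EMT score was 0.00125 against 1.65. VIM was still found in 78.8% of them and EPCAM in 75.8%. Their median count of the SBO05 barcode was 754 UMIs against 1077, that of the highest other barcode of the pool 47 against 32, and their median depth 29400 against 21363 UMIs. The part of mixed droplets or of wrong barcode assignment in these values was not tested.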
